A study of Mus musculus with 183 samples.

Results

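The steady-state response of mouse embryonic stem cells (mESCs) to 4 days of 4-hydroxytamoxifen (4OHT) was measured by RNA-seq in clone 5F, which carries floxed alleles of Skiv2l. The comparison held 6 of the 183 samples of the series. They are the mock libraries of an RNA half-life experiment, which received the solvent DMSO for 6 h in place of actinomycin D, with 3 libraries at day 0 and 3 labelled day 4. The label of the clone reads Rosa26Cre-ERT2/- Skiv2lfl/fl, so both groups carry the tamoxifen-inducible Cre recombinase and the loxP sites, and the groups differ by 0.1 µM 4OHT for 4 days. Both groups were grown in serum with LIF and came from 1 clone of 129 x C57BL/6 cells, and the 3 libraries of a group are technical replicates per the study's methods. The p-values therefore measure the spread between libraries of 1 clone. No library of a clone without loxP sites treated with 4OHT enters the comparison, and effects of the drug, of Cre and of the deletion cannot be told apart. Each library held 27401030 to 34114250 reads in genes, and 16354 of the 53380 genes in the count table passed the filter on low counts. With edgeR's quasi-likelihood test and a Benjamini-Hochberg threshold of 0.05, 2099 genes were higher at day 4 (12.8% of those tested) and 1903 were lower (11.6%). All levels below are in CPM, counts divided by the library size after scaling by size factors. Fold changes of the mock libraries are log2 values, libraries labelled day 4 over day 0, with the SE of the fit and n = 3 in each group.

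SKIV2L is the RNA helicase of the Ski complex, which it forms with TTC37 and WDR61. The complex threads mRNA into the cytoplasmic RNA exosome, which degrades it from the 3′ end, and it acts on mRNAs whose ribosomes have stalled. Messenger RNA levels in such cells can also move through signalling programmes, of which the integrated stress response is a well-known one: phosphorylation of eIF2α lowers general translation and lets the transcription factor ATF4 be made from an mRNA with upstream reading frames.

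The targeted gene was examined first. Skiv2l (chr17:34839228-34850210 in GRCm38) was at 145, 145 and 147 CPM at day 0 and at 155, 134 and 146 CPM in the libraries labelled day 4. The groups overlapped and the fold change was -0.01 ± 0.05 (edgeR adjusted p = 0.914). Excision removes exons 11 to 17, which hold 907 of the 3951 exonic bases of the annotated transcript Skiv2l-201 (23.0%) and lie at chr17:34844338-34846173. A transcript that lost these bases and was otherwise as abundant would give a log2 change of -0.38 in reads per gene. The deposited counts are per gene and not per exon, so they show neither that this stretch was lost nor that it was kept, and the libraries are therefore called "labelled day 4". The paper tested recombination in its conditional lines by RT-qPCR or western blot after 4OHT, and reports a truncated SKIV2L that lacks the catalytic domain. That evidence lies outside these counts. In the actinomycin D libraries of the same clone, per library total without further scaling, Skiv2l was at 163 to 217 CPM at day 0 and 162 to 205 CPM at day 4, ranges that also overlap.

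Among the partners of SKIV2L, Wdr61 fell by 0.38 on the log2 scale, from 121, 118 and 129.9 CPM to 94.3, 96.3 and 91.7 CPM (edgeR adjusted p = 7.38e-06). Ttc37, which encodes the scaffold of the complex, also fell, with a log2 fold change of -0.18 ± 0.05 (adjusted p = 0.0079, and 0.0684 at most with 1 library left out). Focad, an interactor of the complex, rose by 0.21 ± 0.06 (adjusted p = 0.0096), a call that was lost with spike-in scaling (adjusted p = 0.191). Aven, Hbs1l and Pelo, the last 2 being factors that rescue stalled ribosomes, had fold changes of -0.04 ± 0.06, 0.03 ± 0.04 and 0.18 ± 0.10 and did not pass the test. Of the 14 measured genes of the RNA exosome and its nuclear cofactors, 1 rose (Exosc10, by 0.18) and 4 fell, among them Exosc7 (-0.35) and C1d (-0.28). Dis3l, the exonuclease of the cytoplasmic exosome, was at 0.03 ± 0.06 and did not pass the test. Of the 18 genes of decapping and 5′-3′ decay, 3 rose and 3 fell (16.7% each, against 12.8% and 11.6% over all tested genes). The first group included the exonuclease gene Xrn1 (0.22 ± 0.05), but none of the 18 rose with spike-in scaling. The genes that fell were Lsm1, Lsm3 and Lsm6 of the Lsm ring, and the number that fell was 0 without day 0 replicate 1 or 3 or day 4 replicate 3.

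**Figure D1:**
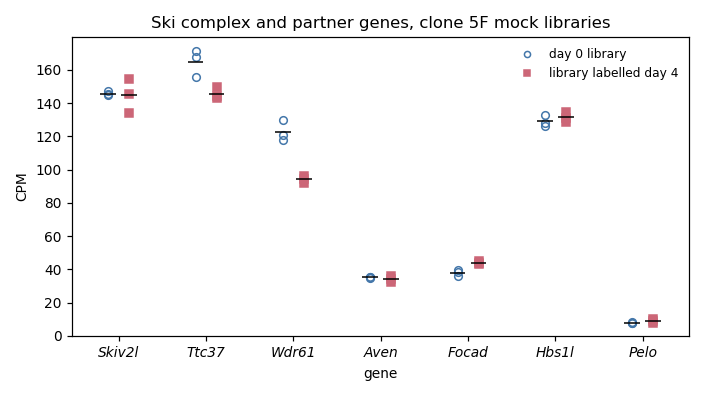
Levels in CPM of the Ski complex and partner genes in the 3 day 0 libraries (open circles) and the 3 libraries labelled day 4 (filled squares) of clone 5F, with group means as black lines. Skiv2l overlaps between the groups at 134 to 155 CPM, while Ttc37 and Wdr61 are lower in every library labelled day 4.

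The 6 libraries were checked against the markers of mESCs. None of the 17 listed genes of the naive stem cell state averaged below 1 CPM, with Pou5f1 at 953, 978 and 977 CPM and Nanog at 339, 329 and 339 CPM at day 0. Markers of other cells were summed over whole lists, in CPM, lowest to highest library. The mesendoderm list summed to 14.4 to 16.5 at day 0 and 14.8 to 17.5 at day 4, and 5 of its 10 genes averaged below 1 CPM. The fibroblast list summed to 54.3 to 56.3 at day 0 and 53.7 to 61.5 at day 4, and the primitive endoderm list to 3498 to 3616 and 3573 to 3799. The neural list summed to 147 to 154 and then 176 to 188, and the trophoblast list to 55.3 to 56.2 and then 59.4 to 67.0, so these 2 sums did not overlap between the days, and their part in the other results was not tested. No marker in any of these lists was without reads in all 6 libraries. Ribosomal RNA that escaped depletion differed among libraries. Mitochondrial rRNA was at 9419, 10508 and 9780 CPM at day 0 and 10412, 16685 and 16196 CPM at day 4, and its part in the other results was not tested.

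Most of the called changes were small. The median absolute fold change of the 4002 called genes was 0.28, and 697 of the higher but 153 of the lower genes moved by more than 0.5. Beyond a change of 1, the counts were 210 higher and 28 lower. The median over all tested genes was 0.00, and it was -0.07 when libraries were scaled by their ERCC spike-ins, RNAs added with the lysis buffer in a fixed amount per sample. This shift turned the split: 1064 genes were higher (6.49%) and 2358 lower (14.4%) with spike-in scaling, so that 31.1% of the calls were higher against 52.4% with size factors. Protein-coding genes made up 2002 of the higher and 1800 of the lower calls.

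The actinomycin D libraries of the same clone were not used for these calls. After 120 min of actinomycin D, which blocks transcription, 2 libraries at day 0 and 3 at day 4 were compared by sign. Of the genes called higher in the mock libraries, 80.4% were also above day 0 there, against 64.2% of all tested genes with a positive mock value. Of the genes called lower, 89.3% were also below, against 70.0% of all tested genes on that side. At 240 min the shares were 83.7% and 88.4%, and at 360 min 81.2% and 83.9%. These libraries were also made from the same clone and treatment. Differences given for them, here and below, are day 4 minus day 0 in log2 of the group mean CPM plus 0.5. Their size factors were made within each time point. These differences come from no fit and carry no SE.

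Counts for lists below are out of the members that passed the filter. Over all tested genes 12.8% were higher and 11.6% lower, and list counts near these shares do not set a list apart. The groups did not overlap in 6185 of the tested genes (37.8%). Where leaving out 1 library moved a count of at least 2 by more than 1.5 times, the count without that library stands in parentheses after it. Among protein-coding genes other than replication-dependent histones, with a mean of at least 10 CPM and groups apart, the largest rise was that of Nfkbid, which encodes a nuclear IκB protein. Its mRNA was at 7.68, 7.89 and 6.61 CPM at day 0 and 22.6, 20.9 and 22.6 CPM at day 4, a log2 fold change of 1.57 ± 0.08 (edgeR adjusted p = 1.62e-11). Txnip, an α-arrestin that restrains glucose uptake, was next, at 153, 148 and 153 CPM and then 407, 414 and 406 CPM (1.43 ± 0.04, adjusted p = 1.25e-15). For both genes every library labelled day 4 was far above every day 0 library. Ifrd1, whose mRNA carries an upstream reading frame and is a known substrate of nonsense-mediated decay, rose from 109, 101 and 109.5 CPM to 212, 218 and 208 CPM (1.00 ± 0.05, adjusted p = 2.30e-12). In the libraries at 120 min of actinomycin D the Ifrd1 difference was 1.49.

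The other largest rises took in several genes for very large proteins. Eppk1 (epiplakin) rose by 1.32 ± 0.07, Apob (apolipoprotein B) by 1.08 ± 0.10, Ttn (titin) by 1.07 ± 0.06 and Ahnak2 by 1.00 ± 0.08. Titin mRNA went from 90.2, 85.4 and 73.0 CPM to 167, 182 and 173 CPM. BC005561 rose by 1.25 ± 0.06, Runx1t1, a transcriptional corepressor, by 1.06 ± 0.08, the E3 ubiquitin ligase gene Rnf128 by 1.00 ± 0.07, and Slc1a4, a transporter of neutral amino acids, by 1.00 ± 0.08. Rpl3, a protein of the large ribosomal subunit, completed the 12. It was at 64.1, 67.2 and 60.2 CPM at day 0 and 148, 128 and 148 CPM at day 4, a change of 1.14 ± 0.06, and at 120 min of actinomycin D the difference was 2.48. Ribosomal protein genes have many near-identical processed copies and only uniquely mapped reads were counted, so the level of Rpl3 is uncertain.

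The largest falls were smaller in size than the largest rises. Dab2, an endocytic adaptor, fell from 33.8, 34.8 and 38.6 CPM to 20.2, 21.6 and 19.4 CPM (-0.81 ± 0.07, edgeR adjusted p = 2.60e-08). Cubn (cubilin), an endocytic receptor that is taken up with the help of DAB2, fell from 85.5, 88.6 and 78.7 CPM to 55.9, 54.7 and 58.2 CPM (-0.58 ± 0.05, adjusted p = 9.41e-08). Etfbkmt, a lysine methyltransferase of mitochondria, fell by 0.69 on the log2 scale, and Kyat3, an aminotransferase that makes kynurenic acid, fell by 0.63. Srgn (serglycin) and Itga9 (an integrin chain) both had fold changes of -0.62. Cisd3, E2f2, Retsat, Bcl2l2, B3galnt2 and Zfp595 had fold changes between -0.57 and -0.52. Within this set E2f2 is a transcription factor of the G1 to S transition and Bcl2l2 an inhibitor of apoptosis. For all 24 genes of the largest rises and falls the groups did not overlap, which was a condition of their choice.

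**Figure D2:**
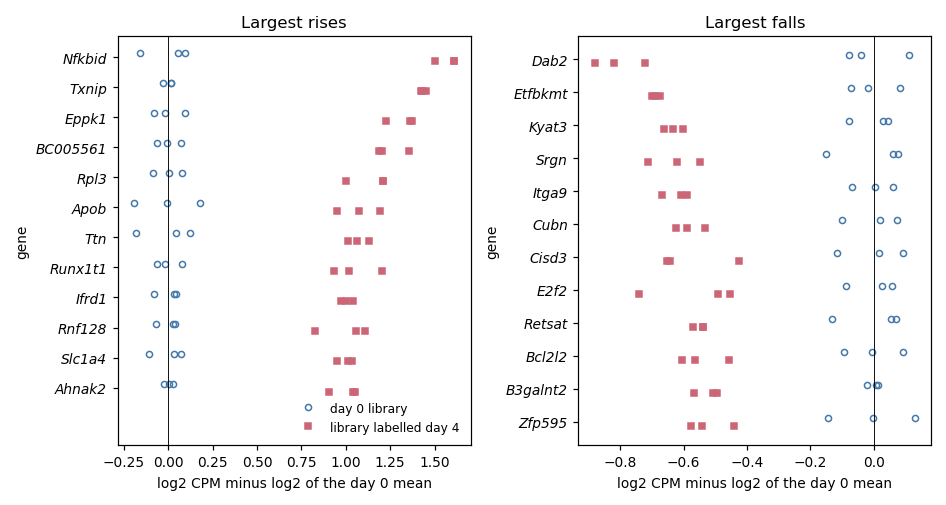
Level of the 12 genes with the largest rise (left) and the 12 with the largest fall (right) in each library, as log2 CPM minus the log2 of the day 0 mean; open circles are day 0 and filled squares are labelled day 4. Circles and squares are apart in every row, and the fold changes shrink downwards from 1.57 (Nfkbid) on the left and from -0.81 (Dab2) on the right.

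Of the 17 genes of the list of ATF4 and the stress response, 14 rose and none fell (higher calls over all tested genes, 12.8%), with a median of 0.69. Other genes known as ATF4 targets, such as Asns, Psat1 and Phgdh, are in the lists of amino acid supply and are given there. Atf4 mRNA itself was at 128, 125 and 126 CPM at day 0 and 221, 227 and 220.0 CPM at day 4 (0.82 ± 0.04, edgeR adjusted p = 1.47e-11). The 6 values fell into separate ranges, with day 4 near 220 CPM. Chac1, which degrades glutathione, rose from 2.85, 2.59 and 2.50 CPM to 9.49, 7.70 and 9.48 CPM (1.75 ± 0.12), the largest change of the list. Ddit3, which encodes the transcription factor CHOP, rose from 2.85, 3.51 and 3.04 CPM to 9.17, 7.22 and 9.09 CPM (1.43 ± 0.13). Trib3, a pseudokinase, rose from 14.6, 15.0 and 15.1 CPM to 29.2, 28.5 and 30.6 CPM (0.98 ± 0.07), and Atf3, another stress-induced transcription factor, from 6.20, 6.65 and 6.19 CPM to 12.8, 11.8 and 11.6 CPM (0.92 ± 0.09). In each of these genes the lowest library labelled day 4 was above the highest day 0 library. Groups did not overlap in 37.8% of all tested genes. Stc2, Nupr1 and Cebpb were at 0.69, 0.79 and 0.69. Ppp1r15a, the regulatory subunit of the phosphatase that reverses eIF2α phosphorylation, rose by 0.41 ± 0.06, and Eif4ebp1, which restrains cap-dependent translation, by 0.26 ± 0.05. Sesn2, Ddit4 and Cebpg had fold changes of 0.13 ± 0.06, 0.02 ± 0.06 and -0.01 ± 0.06 and did not pass the test. At 120 min of actinomycin D, 14 of the 17 genes were above day 0, with a median of 0.46, but the median was 0.15 at 240 min and -0.11 at 360 min. With any 1 library left out, 13 to 15 of the 17 rose and none fell.

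Genes for amino acid supply were split. Of 12 amino acid transporter genes, 9 rose and 1 fell. Slc7a1, the transporter of arginine and lysine, rose from 63.2, 71.7 and 63.7 CPM to 103, 118 and 121 CPM (0.78 ± 0.06, adjusted p = 6.60e-09). Both chains of the large neutral amino acid exchanger rose, Slc7a5 by 0.32 ± 0.05 and its heavy chain Slc3a2 by 0.27 ± 0.05. Slc7a11, the cystine transporter, stood at 0.247, 0.0576 and 0.0715 CPM at day 0 and 0.698, 0.999 and 1.40 CPM at day 4, so its fold change of 3.05 ± 0.45 rests on few reads and all 6 libraries were at or below 1.40 CPM. The exception was Slc7a3, another transporter of cationic amino acids, which fell by 0.25 on the log2 scale. Of the 20 cytosolic tRNA synthetases, 6 rose (3 without day 0 replicate 1) and none fell, with a list median of -0.01. With spike-in scaling 1 rose and 1 fell. Vars, the valine enzyme, changed most, from 289.8, 339 and 303 CPM to 388, 362 and 422 CPM (0.33 ± 0.06), followed by Cars (0.24), Mars (0.17), Iars (0.16), Aars (0.15) and Yars (0.14).

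Of 15 genes of amino acid and one-carbon synthesis, 6 rose and 4 fell. The mitochondrial folate enzymes were among the first group: Mthfd2 went from 68.2, 68.3 and 65.9 CPM to 102, 100.1 and 99.3 CPM (0.57 ± 0.05, edgeR adjusted p = 1.42e-08) and Shmt2 rose by 0.34 ± 0.05. Aldh18a1, an enzyme of proline synthesis, rose by 0.38 ± 0.05, and Pck2 by 0.37 ± 0.06. In contrast Pycr1, the last enzyme of proline synthesis, fell by 0.48 on the log2 scale, Psph of serine synthesis by 0.33, Cbs by 0.28 and the cytosolic folate enzyme Shmt1 by 0.25. Asns, the asparagine synthetase, was at -0.01 ± 0.04, Phgdh at -0.09 ± 0.06 and Psat1 at -0.09 ± 0.04, and none of these 3 passed the test.

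ATF4 binds a composite C/EBP-ATF element (CARE), searched here as the letters TGATGNAAN on both strands, in the 300 bases around each RefSeq start (GRCm38.p6), from 250 before it to 50 after. It is held by 2.65% of the 11202 tested genes with such a window. Matches were found in 5 of 16 genes of the ATF4 and stress list (Chac1, Atf3, Trib3, Nupr1 and Vldlr), 5 of 12 tRNA synthetases, 4 of 13 genes of amino acid synthesis and 3 of 8 amino acid transporters with a window. Over all called genes, the element was in 3.70% of the 1542 higher and 1.88% of the 1492 lower genes. A match of letters describes the window and does not show binding. Genes with a match did not all rise: among those of amino acid synthesis Pck2 rose, Pycr1 fell and Asns did not pass the test. The 4 windows given here, so that the element can be seen in its place, were picked from genes that rose. Each is written from 5′ to 3′ on the strand of the gene, with the match in capitals.
Chac1 (chr2:119350992-119351291, plus strand): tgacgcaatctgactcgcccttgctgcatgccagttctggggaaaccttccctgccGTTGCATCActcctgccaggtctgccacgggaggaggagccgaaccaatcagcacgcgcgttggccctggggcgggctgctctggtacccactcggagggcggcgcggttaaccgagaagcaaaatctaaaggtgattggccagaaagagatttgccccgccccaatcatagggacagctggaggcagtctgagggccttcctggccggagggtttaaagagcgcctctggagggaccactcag
Atf3 (chr1:191183284-191183583, minus strand): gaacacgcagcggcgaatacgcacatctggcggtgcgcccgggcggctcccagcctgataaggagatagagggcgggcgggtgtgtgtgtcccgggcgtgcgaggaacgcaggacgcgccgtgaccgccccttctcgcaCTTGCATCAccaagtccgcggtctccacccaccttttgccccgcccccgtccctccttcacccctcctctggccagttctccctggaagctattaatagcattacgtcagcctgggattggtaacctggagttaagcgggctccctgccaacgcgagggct
Trib3 (chr2:152344011-152344310, minus strand): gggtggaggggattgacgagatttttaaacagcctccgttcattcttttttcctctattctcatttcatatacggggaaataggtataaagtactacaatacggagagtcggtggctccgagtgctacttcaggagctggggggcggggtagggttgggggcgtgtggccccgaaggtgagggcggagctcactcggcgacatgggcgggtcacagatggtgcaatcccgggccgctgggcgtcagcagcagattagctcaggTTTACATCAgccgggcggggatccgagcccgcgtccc
Slc1a4 (chr11:20332664-20332963, minus strand): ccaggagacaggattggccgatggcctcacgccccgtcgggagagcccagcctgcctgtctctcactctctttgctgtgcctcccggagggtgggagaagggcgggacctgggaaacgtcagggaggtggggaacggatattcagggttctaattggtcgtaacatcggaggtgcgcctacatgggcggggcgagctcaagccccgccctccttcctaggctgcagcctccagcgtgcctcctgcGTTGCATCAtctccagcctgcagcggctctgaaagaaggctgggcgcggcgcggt
All 4 matches read as the reverse complement of the searched letters, ending in GCATCA or ACATCA. Their first base lay 194 bases before the start in Chac1, 111 before in Atf3 and 5 before in Slc1a4, and in Trib3 at 14 after it. The matches differ at their 5′ side, GTTGCATCA in Chac1 and Slc1a4, CTTGCATCA in Atf3 and TTTACATCA in Trib3.

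Of the 23 genes of chaperones and folding in the endoplasmic reticulum (ER), 11 fell and 1 rose (lower calls over all tested genes, 11.6%), with a median of -0.13. Hspa5, the ER chaperone BiP, fell from 1137, 1054 and 1173 CPM to 847, 830.1 and 756 CPM (-0.47 ± 0.05, edgeR adjusted p = 8.05e-07). Calr (calreticulin) fell from 787, 771 and 809 CPM to 673, 648 and 632 CPM (-0.28 ± 0.04). Manf had a fold change of -0.44 ± 0.05, Pdia6 of -0.30 ± 0.04, Hsp90b1 of -0.27 ± 0.05, Xbp1 of -0.28 ± 0.05 and Pdia4, a disulphide isomerase, of -0.22 ± 0.04. The gene that rose was Herpud1 (0.36 ± 0.08), which acts in ER-associated degradation and is also a target of ATF4. Canx and Hyou1 were at 0.03 ± 0.05 and -0.05 ± 0.05 and did not pass the test. After 120 min of actinomycin D, Hspa5 and Calr differed by -0.14 and -0.10, but 12 of the 23 genes were above day 0, with a list median of 0.02, and at 240 min the median was 0.07. Of 16 cytosolic and mitochondrial heat shock genes, 4 fell (2 without day 0 replicate 1 or 3 or day 4 replicate 3) and 1 rose (2 without day 4 replicate 1 and 3 without day 4 replicate 2), with the cochaperonin gene Hspe1 at -0.25 and Hsp90ab1, the gene that rose, at 0.15.

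Of 25 genes of cholesterol synthesis and uptake, 13 fell, none rose and 12 did not pass the test, with a median of -0.17. Hmgcs1, which makes HMG-CoA at the entry of the pathway, fell from 498, 469.5 and 495 CPM to 339.5, 361 and 332 CPM (-0.50 ± 0.05, edgeR adjusted p = 7.33e-08). Msmo1, a sterol methyl oxidase, fell from 77.4, 72.1 and 80.3 CPM to 54.2, 55.1 and 54.0 CPM (-0.49 ± 0.05), and no library labelled day 4 reached the lowest day 0 library. Acat2 had a fold change of -0.35 ± 0.05 and Insig1, the sterol sensor, of -0.35 ± 0.06. Sqle was at 0.03 ± 0.04 and did not pass the test, nor did Srebf2, the transcription factor of the pathway, at 0.17 ± 0.07. The sterol element SRE1, searched as TCACNCCAC on both strands, was in 1 of 17 windows of the list, that of Hmgcs1, and in 1.50% of tested genes. The window of Hmgcs1 is shown because its gene fell most, with the match, 137 bases before the start, in capitals.
Hmgcs1 (chr13:119690101-119690400, plus strand): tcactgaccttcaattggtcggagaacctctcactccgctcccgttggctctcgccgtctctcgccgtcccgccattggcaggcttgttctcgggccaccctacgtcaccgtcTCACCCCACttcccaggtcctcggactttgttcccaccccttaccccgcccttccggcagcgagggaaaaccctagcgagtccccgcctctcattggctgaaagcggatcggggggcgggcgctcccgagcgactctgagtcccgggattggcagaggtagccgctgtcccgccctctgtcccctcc
Of 14 genes of fatty acid synthesis, 3 rose and 1 fell (1 in each direction with spike-in scaling), with Fasn, the fatty acid synthase, at 0.34 ± 0.06 and Srebf1 at 0.23 ± 0.07.

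Genes induced by hypoxia fell in part. Of 18 tested HIF targets 8 fell (5 without day 0 replicate 1) and 1 rose. Bnip3, which promotes removal of mitochondria, fell from 11.1, 10.8 and 10.9 CPM to 6.94, 6.22 and 5.75 CPM (-0.79 ± 0.09, edgeR adjusted p = 3.36e-06). The lactate exporter gene Slc16a3 fell by 0.45 on the log2 scale and Pdk1, which restrains pyruvate oxidation, by 0.32. Pfkfb3 rose (0.32 ± 0.07), while Vegfa, at -0.03 ± 0.07, did not pass the test. Of 17 glycolytic genes, 4 fell and 2 rose (1 without day 0 replicate 1 or 3 or day 4 replicate 1, 2 or 3). The glucose transporter gene Slc2a1 fell from 299.7, 323 and 303 CPM to 246, 230.4 and 235 CPM (-0.38 ± 0.05, adjusted p = 3.30e-06), Tpi1 had a fold change of -0.34 ± 0.05 and Ldha of -0.25 ± 0.05. The hexokinases Hk1 and Hk2 were the genes that rose, at 0.32 and 0.14. Other α-arrestins rose with Txnip. Arrdc4 went from 37.3, 32.5 and 33.2 CPM to 53.9, 51.4 and 49.5 CPM (0.59 ± 0.06) and Arrdc3 rose by 0.39 ± 0.05, while Mlx, which encodes the partner of the glucose-sensing factors that drive Txnip, fell by 0.24 on the log2 scale. Mlxip and Mlxipl, the sensing factors themselves, were at -0.08 ± 0.08 and 0.03 ± 0.17 and did not pass the test.

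**Figure D3:**
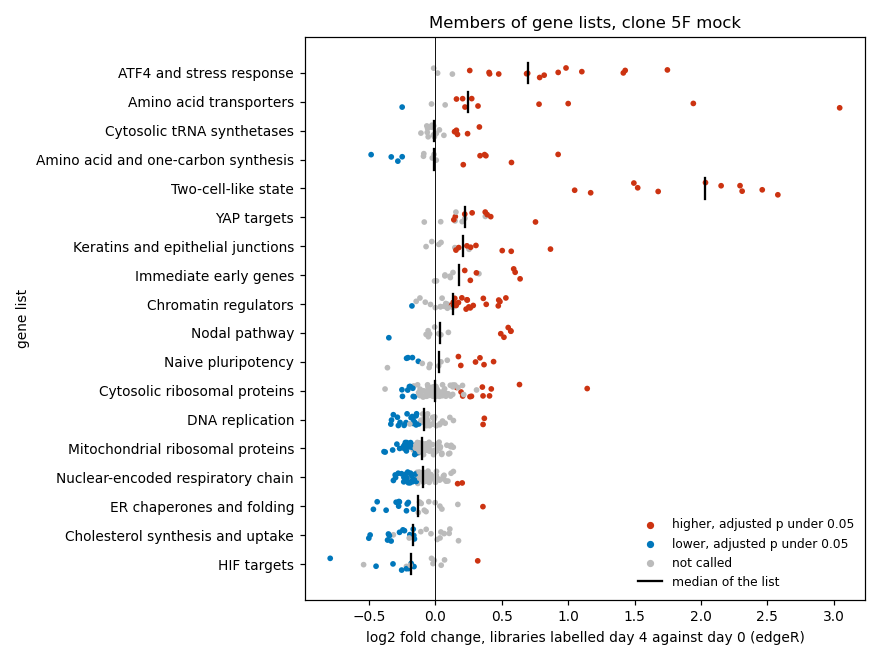
Log2 fold change of every tested member of 18 gene lists in clone 5F, one point per gene; red points rose, blue points fell, grey points did not pass the threshold of 0.05, and the black bar is the median of the list; for the two-cell-like state 11 of 17 genes were tested. The list of ATF4 and the stress response has its median at 0.69 and no blue point, and the list of cholesterol synthesis its median at -0.17 and no red point.

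The length of the coding sequence moved with the change. Of 397 genes with a coding sequence of at least 6000 bases, 226 rose (56.9%) and 5 fell, with a median of 0.25. Of 1614 genes with fewer than 600 coding bases, 99 rose (6.13%) and 328 fell (20.3%), with a median of -0.08. Replication-dependent histone genes were left out of the counts by length. Their median coding length was 387 bases, and 55 of the 59 tested rose. In the decile of coding genes with the longest sequences, with a median length of 4818 bases, 37.1% rose and 3.30% fell. In the decile with the shortest, with a median of 423 bases, 6.10% rose and 19.8% fell, and the bins in between held intermediate shares. The median level was 16.1 CPM in the shortest decile and 41.6 CPM in the longest. The shares called also differed by level, with 10.2% higher and 1.39% lower in the lowest decile of mean CPM. In the highest decile of mean CPM they were 21.6% and 14.2%, and the part of the level in the pattern by length was not tested. The median of log2 CPM, centred on each gene's mean over the 6 libraries, was -0.11, -0.09 and -0.14 at day 0 and 0.10, 0.12 and 0.15 at day 4 for the genes of at least 6000 coding bases. For the genes under 600 bases it was 0.03, 0.02 and 0.05 and then -0.02, -0.04 and -0.05. The median of the long genes was 0.18 with spike-in scaling, 0.07 at 120 min of actinomycin D and, with size factors, 0.13 in clone 7E, described further on.

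**Figure D4:**
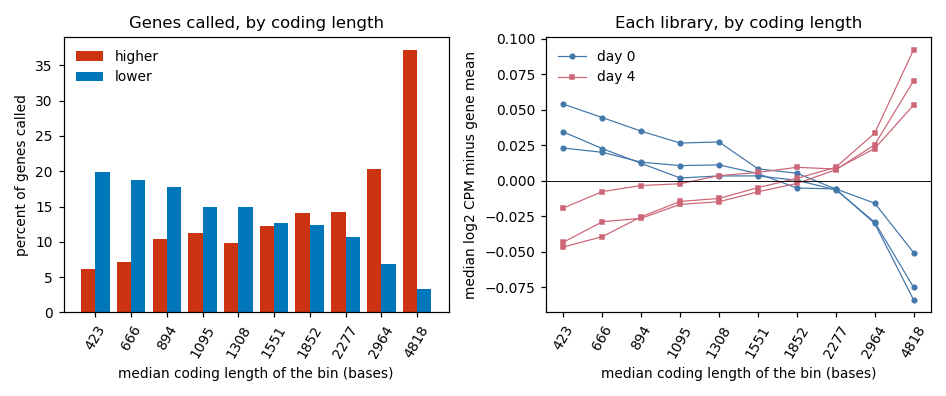
Left, percent of protein-coding genes other than replication-dependent histones called higher (red) and lower (blue) in 10 bins of coding length, labelled by the median length of the bin in bases. Right, the median over the genes of each bin of log2 CPM minus the gene's mean over the 6 libraries, one line per library; at 2277 bases and above every day 0 line is below 0 and every day 4 line above it, and in the shortest bin the order is reversed.

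Ahnak, a giant scaffold protein with a coding sequence of 16968 bases, rose from 458, 439 and 411 CPM to 845, 826 and 802 CPM (0.92 ± 0.05, edgeR adjusted p = 9.17e-12). The desmosomal linker gene Dsp, of 8649 coding bases, rose from 46.6, 46.6 and 42.0 CPM to 67.2, 65.3 and 68.4 CPM (0.57 ± 0.05). Cytoskeletal genes of the same kind included Myh9, the heavy chain of non-muscle myosin (0.48 ± 0.05), and Tln1 (talin, 0.45 ± 0.05). Of 19 actin and contractile genes, 6 rose and none fell, and Actb was at 0.11 ± 0.05. Fn1 (fibronectin) rose by 0.50 ± 0.05 and its receptor chain Itga5 by 0.48 ± 0.05. Of 44 listed collagen genes 34 were tested, of which 9 rose, 1 fell and 24 did not pass. Col11a1 rose from 4.51, 4.40 and 4.58 CPM to 8.16, 6.70 and 7.18 CPM (0.71 ± 0.11), Col7a1 by 0.61 ± 0.11 and Col5a1 by 0.43 ± 0.07. The short genes of the S100 family moved less, with S100a6 at 0.32 ± 0.07 and S100a10 at -0.03 ± 0.06, which did not pass the test.

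Chromatin regulators, most of them with long coding sequences, rose in number. Of 34 genes, 19 rose and 1 fell, with a median of 0.14 and a median coding length of 4856 bases. Kmt2a, a histone H3K4 methyltransferase, rose from 83.1, 82.1 and 74.4 CPM to 107, 116 and 113 CPM (0.49 ± 0.05, edgeR adjusted p = 7.60e-07). Kmt2c and the acetyltransferase gene Crebbp rose by 0.47 ± 0.05 and 0.38 ± 0.05. The gene that fell was Tet2 (-0.18 ± 0.04). Trim28, the corepressor of KRAB zinc finger proteins, was at -0.04 ± 0.04 and did not pass the test. The number that rose was 12 without day 0 replicate 1 or 3, and with spike-in scaling 9 rose and 2 fell. At 120 min of actinomycin D only 12 of the 34 genes were above day 0, with a median of -0.09. The median was -0.01 at 240 min, so the rise of the list was not seen in these libraries. Of 341 tested Zfp genes, which encode zinc finger proteins, 21 rose and 67 fell (19.6%). The number that fell was 34 without day 0 replicate 1, 41 without day 0 replicate 3, 42 without day 4 replicate 1 and 44 without day 4 replicate 3.

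RNA surveillance and splicing factors changed in a minority of genes. Of 15 factors of nonsense-mediated decay, 6 rose and 1 fell. Upf1, the central helicase, rose from 148, 160.0 and 149 CPM to 195, 185 and 209 CPM (0.36 ± 0.05, edgeR adjusted p = 1.96e-05), Smg6, its endonuclease, by 0.32 ± 0.05 and Smg9 by 0.31 ± 0.07. Magoh, a core protein of the exon junction complex, fell by 0.15 on the log2 scale, and Upf2 and Upf3b, at -0.03 ± 0.05 and -0.09 ± 0.05, did not pass the test. Of 33 SR and hnRNP genes, 7 rose and 1 fell (2 in each direction with spike-in scaling), the rises including Hnrnpul2 (0.37) and Hnrnpd (0.31). Sfpq was at -0.01 ± 0.04 and did not pass the test. Of 36 spliceosomal proteins, 4 rose (2 without day 0 replicate 1 or 3) and 10 fell (5 without day 0 replicate 1 or 3 and 6 without day 4 replicate 3), and Prpf8, the core of the spliceosome, rose by 0.27 ± 0.04 while Sf3b6 fell by 0.24 on the log2 scale. Of 14 snoRNA host genes, whose spliced transcripts are known targets of nonsense-mediated decay, 5 rose (3 without day 0 replicate 2 or 3 or day 4 replicate 1) and none fell. Snhg5 rose from 154, 139 and 147 CPM to 209, 236 and 205 CPM (0.56 ± 0.05), while Gas5 was at -0.03 ± 0.05 and did not pass the test.

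Genes of the ribosome did not move in 1 direction. Of 83 cytosolic ribosomal proteins, 11 rose (13.3%) and 8 fell (9.64%). These shares were near those over all tested genes, 12.8% and 11.6%, and the list median was 0.00. Rpl3 stood out with its rise of 1.14, Rps2 rose by 0.42 ± 0.08 and Rpl7l1, a paralogue, fell by 0.25 on the log2 scale. The number that rose was 6 without day 0 replicate 1 and 7 without day 4 replicate 1 or 3, the number that fell was 2 without day 0 replicate 1 and 5 without day 0 replicate 3 or day 4 replicate 3, and with spike-in scaling 4 rose and 9 fell. Of 20 translation factors whose mRNAs carry a 5′ terminal oligopyrimidine motif, 5 rose and 2 fell (0 without day 0 replicate 3 or day 4 replicate 3 and 1 without day 0 replicate 1 or day 4 replicate 1), with Tpt1 at 0.61 ± 0.09, Pabpc1 at 0.32 ± 0.04 and Eef2 at 0.27 ± 0.05. Of 24 ribosome biogenesis genes, 7 rose and 3 fell (0 without day 0 replicate 3 or day 4 replicate 3 and 1 without day 0 replicate 1), and with spike-in scaling 5 rose and 5 fell. Nop56, a core protein of box C/D snoRNPs, rose from 373, 371 and 371 CPM to 599, 575 and 581 CPM (0.65 ± 0.04, edgeR adjusted p = 3.32e-10), and Rrp12 and Polr1a by 0.35 ± 0.05 and 0.25 ± 0.04. Ncl rose by 0.13 ± 0.05, and Noc2l was at 0.12 ± 0.05 and did not pass the test.

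Of 74 mitochondrial ribosomal proteins, 22 fell (11 without day 0 replicate 3 and 14 without day 4 replicate 3) and none rose, with a median of -0.10. Mrpl24 had a fold change of -0.29 ± 0.05, Mrpl42 of -0.27 ± 0.05 and Mrps21 of -0.38 ± 0.07. Of 77 nuclear-encoded subunits of the respiratory chain, 23 fell and 2 rose (0 without day 0 replicate 1 or 3 or day 4 replicate 3, 1 without day 4 replicate 1 and 5 without day 4 replicate 2). Uqcrh of complex III had a fold change of -0.30 ± 0.05 and Sdhd of complex II of -0.26 ± 0.04, while Cox5b rose by 0.20 ± 0.06. Both lists hold short coding sequences, with medians of 588 and 429 bases. Of 7 tested mRNAs encoded by mitochondrial DNA, 1 fell (0 without day 0 replicate 2 or day 4 replicate 1 and 3 without day 4 replicate 2), mt-Nd6 (-0.31 ± 0.10), while mt-Co1 was at -0.04 ± 0.06. Vdac1, the pore of the outer membrane, was at -0.12 ± 0.04 with an adjusted p of 0.05, just inside the threshold, and lost its call when a library was left out (adjusted p up to 0.265). Of 38 proteasome subunits, 6 fell (2 without day 0 replicate 3 and 10 without day 0 replicate 2) and 1 rose.

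Signalling genes changed in several directions. Nodal, a TGFβ-family ligand, was at 61.9, 63.5 and 64.8 CPM at day 0 and 91.8, 88.4 and 98.0 CPM at day 4 (0.55 ± 0.05, edgeR adjusted p = 1.06e-07). Its inhibitors, which are also its targets, rose with it. Lefty1 went from 139, 155 and 150.2 CPM to 204, 202 and 253 CPM (0.57 ± 0.07) and Lefty2 from 57.7, 61.3 and 66.4 CPM to 82.3, 87.1 and 95.6 CPM (0.52 ± 0.06). Foxh1, the DNA-binding partner of the SMADs in this pathway, rose by 0.49 ± 0.06, while Smad3, a signal transducer, fell by 0.35 on the log2 scale. The receptor genes Acvr1b, Acvr2a and Acvr2b and the coreceptor Tdgf1 did not pass the test, so 5 of the 14 genes of the pathway rose and 1 fell. After 120 min of actinomycin D, Nodal, Lefty1 and Lefty2 were at 0.73, 0.79 and 0.62.

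In the BMP pathway, the ligand Bmp4 fell by 0.34 on the log2 scale, while the target genes Id1, Id2 and Id3, inhibitors of differentiation, rose, and 4 of the genes of this list rose in all (2 without day 0 replicate 1). Id1 went from 23.9, 27.3 and 24.1 CPM to 30.5, 30.6 and 33.4 CPM (0.32 ± 0.07), and Id2 rose by 0.49 ± 0.06. Of 15 FGF and ERK feedback genes, 4 rose and 3 fell (1 without day 0 replicate 3). The ligand Fgf4 fell by 0.26, the feedback inhibitors Spry2 and Spred2 rose by 0.28 ± 0.04 and 0.41 ± 0.07, and Dusp6, an ERK phosphatase, fell by 0.14. In the LIF pathway Lifr, the receptor, rose by 0.30 ± 0.05, Stat3 by 0.18 ± 0.04 and the target Pim1 by 0.34 ± 0.05. Pim3 rose by 0.16 ± 0.05 (edgeR adjusted p = 0.0169, and 0.091 with 1 library left out). Socs3 was at 0.09 ± 0.05 and did not pass the test, while Gbx2 fell by 0.34. Of 13 Wnt targets and feedback genes 2 rose (0 without day 0 replicate 3 or day 4 replicate 3 and 1 without day 0 replicate 1), Cdx1 and Tcf7l1, and Axin2 was at -0.05 ± 0.12.

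Of 15 targets of the transcriptional activator YAP, 8 rose (5 without day 0 replicate 1) and none fell, with a median of 0.22, and 4 rose with spike-in scaling. Ccn1, a secreted matricellular protein, went from 40.6, 39.8 and 41.4 CPM to 68.9, 70.1 and 66.4 CPM (0.75 ± 0.05, edgeR adjusted p = 1.14e-09). Ccn2, its relative, rose by 0.42 ± 0.05, Amotl2 by 0.39 ± 0.05 and Tead1, the DNA-binding partner of YAP, by 0.28 ± 0.04. Immediate early genes rose in 6 of 14 cases. The AP-1 subunit gene Jun went from 11.5, 13.0 and 12.5 CPM to 19.1, 18.2 and 20.4 CPM (0.64 ± 0.08) and Junb from 21.3, 26.4 and 23.3 CPM to 36.1, 31.8 and 39.3 CPM (0.59 ± 0.08), while Fos was at 0.33 ± 0.15 and did not pass the test. Of 14 keratin and junction genes 8 rose and none fell. Krt19 went from 6.87, 7.57 and 8.62 CPM to 12.5, 8.66 and 11.5 CPM (0.50 ± 0.12), with the highest day 0 and the lowest day 4 library side by side, and Cdh1 (E-cadherin) rose by 0.31 ± 0.05. In the NF-κB list 5 of 12 rose (3 without day 0 replicate 1) and 1 fell. Beside Nfkbid, Nfkbiz, another nuclear IκB, rose from 4.23, 5.21 and 4.33 CPM to 8.34, 8.81 and 8.12 CPM (0.87 ± 0.11) and Icam1 by 0.38 ± 0.05, while Nfkb1, which encodes the p105 precursor, fell by 0.24. Of 28 listed genes of RNA sensing and the interferon response 18 could be tested, and of these none rose and 3 fell, Mavs (-0.39), Irf9 (-0.28) and Eif2ak2 (-0.19), the last being PKR, a kinase of eIF2α.

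The p53 targets changed in a minority. Cdkn1a, the inhibitor of cyclin-dependent kinases, went from 8.14, 10.2 and 10.4 CPM to 11.9, 11.5 and 15.8 CPM (0.44 ± 0.11, edgeR adjusted p = 0.0064), and Mdm2, which degrades p53, from 190.0, 179.8 and 185 CPM to 217, 221 and 204 CPM (0.21 ± 0.05). Trp53 itself and Plk2 also rose, so that 4 of 17 genes rose, and 1 fell (3 without day 0 replicate 2). Mdm2 lost its call with spike-in scaling (adjusted p = 0.133). Of 17 apoptosis genes 5 fell (3 without day 0 replicate 3 or day 4 replicate 3) and 2 rose (1 without day 0 replicate 1 or 3 or day 4 replicate 1, 2 or 3), and Apaf1, the scaffold of the apoptosome, fell by 0.42 on the log2 scale. Of the oxidative stress genes driven by NRF2, 1 of 15 was called (0 without day 0 replicate 1 or day 4 replicate 3 and 2 without day 4 replicate 2), Hmox1 (0.16 ± 0.05), and Nqo1 at 0.02 ± 0.06. Mt1, a metallothionein, was at 0.02 ± 0.05 and did not pass the test, while the zinc exporter gene Slc30a1 rose by 0.44 ± 0.05.

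Pluripotency genes were split. Of 17 genes of the naive state, 6 rose and 4 fell (2 without day 0 replicate 1 or 3 or day 4 replicate 3), and with spike-in scaling 4 rose and 4 fell. Klf5 went from 168, 171 and 163 CPM to 217, 235 and 229 CPM (0.44 ± 0.05, edgeR adjusted p = 4.35e-07) and Sox2 from 291, 293 and 297 CPM to 324, 336 and 347 CPM (0.19 ± 0.04, adjusted p = 0.0026). Nanog went from 339, 329 and 339 CPM to 289, 296 and 280.3 CPM (-0.22 ± 0.04, adjusted p = 8.15e-04), and Pou5f1 to 927, 827 and 905 CPM (-0.13 ± 0.05, adjusted p = 0.0478). The call for Pou5f1 was lost in the fit with the replicate block (adjusted p = 0.153) and when a library was left out (adjusted p up to 0.203), and that for Sox2 was lost with spike-in scaling (adjusted p = 0.189). Klf2, Sall4, Tbx3 and Klf4 rose by 0.37, 0.34, 0.30 and 0.17, Dppa5a fell by 0.17, and Esrrb, Tfcp2l1 and Zfp42 did not pass the test. Of 12 genes of the formative and primed state 2 rose (1 without day 0 replicate 3 or day 4 replicate 3 and 4 without day 0 replicate 2) and 3 fell, the falls being Sall2, Dnmt3b and Otx2. Primitive endoderm genes included the 2 endocytic genes with the largest falls, Dab2 and Cubn, and Gata4 and Pdgfra also fell, by 0.22 and 0.22. Gata6 and Sox17 had fold changes of -0.17 ± 0.08 and -0.12 ± 0.09 and did not pass the test, while Lamc1 and Nid1 of the basement membrane rose by 0.21 and 0.27. 

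Genes of the two-cell-like state, a rare state of mESC cultures, were near the limit of detection. The summed level of the 17 listed genes was 4.35 to 5.92 CPM at day 0 and 15.3 to 17.5 CPM at day 4, and 15 of the 17 averaged below 1 CPM. Zscan4a was at 2.15, 0.892 and 1.18 CPM and then 2.93, 3.18 and 2.48 CPM (1.05 ± 0.23, edgeR adjusted p = 0.002). Only 11 of the 17 had enough reads to be tested, and their fold changes ran from 1.05 to 2.58, with Zscan4a at the low end. Genes this low can pass the filter on low counts through the day 4 libraries alone, so nothing is drawn from their number. Zscan4a is 1 of several near-identical genes, so the level of any 1 of them is uncertain. Whether more cells were in this state or each such cell held more RNA cannot be told apart in bulk samples. Germline genes, a class silenced by DNA methylation in most cells, rose in 5 of 11 cases (3 without day 0 replicate 1 or day 4 replicate 1 or 2) and none fell. Sycp1, of the synaptonemal complex, went from 20.1, 17.1 and 18.7 CPM to 26.4, 31.6 and 23.0 CPM (0.54 ± 0.09, adjusted p = 2.00e-04), and Mael, of the piRNA pathway, rose by 0.44 ± 0.07. Among 23 imprinted protein-coding genes 8 rose and none fell, with Peg10 at 0.42 ± 0.04, Igf2r at 0.34 ± 0.04 and Plagl1 at 0.67 ± 0.09. The nuclear RNA Neat1 rose by 0.50 ± 0.07, while Malat1 was at 0.11 ± 0.05 and did not pass the test. Nes, an intermediate filament gene of neural precursors with 5592 coding bases, rose by 0.61 ± 0.05, while Pax6 fell by 0.30.

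Genes of the cell cycle fell in part. Of 47 DNA replication genes, 19 fell (10 without day 0 replicate 3, and 10 with the replicate block) and 2 rose. Cdc6, a licensing factor, fell from 98.9, 98.8 and 103 CPM to 79.8, 79.4 and 78.5 CPM (-0.34 ± 0.05, edgeR adjusted p = 1.85e-05). The genes that rose were those of polymerase catalytic subunits, Pole from 193, 202 and 195 CPM to 254, 255 and 253 CPM (0.37 ± 0.04) and Pold1 (0.36 ± 0.05). Of 35 mitotic genes, 10 fell (6 without day 0 replicate 3) and 3 rose (1 without day 0 replicate 3), the falls including Ccnb1 (-0.25), Aurkb (-0.26) and Ccnf (-0.28). Against these, 55 of 59 replication-dependent histone genes rose, with Hist1h1a going from 629, 667 and 661 CPM to 1477, 1331 and 1456 CPM, while Slbp, whose protein binds the histone stem-loop, fell by 0.21. Small nuclear RNAs summed to 828, 794 and 660 CPM at day 0 and 464, 711 and 622 CPM at day 4, ranges that overlap, and 10 of 29 fell.

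The deposited relative binding values give, for each mRNA, the share of SKIV2L in its pooled CRAC signal of SKIV2L, XRN1 and MTR4. They were made from other lines and carry no replicate error. The median SKIV2L share was 0.285 for 1195 genes called higher, 0.273 for 1227 called lower and 0.262 for 4808 not called, and the interquartile ranges overlapped (0.192 to 0.408, 0.171 to 0.410 and 0.171 to 0.388). In the decile of mRNAs with the largest SKIV2L share 17.7% rose and 20.1% fell, and in the decile with the smallest share 11.8% rose and 19.4% fell. The median coding length was 1009.5 bases in the first of these deciles and 1392 in the second. The part of length in these shares was not tested. Single genes that rose differed, with a SKIV2L share of 0.420 for Rpl3, 0.490 for Ifrd1, 0.372 for Atf4 and 0.0858 for Chac1.

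Clone 7E was treated in the same way. Its label in this experiment gives Rosa26 with Cre-ERT2 and BirA-V6, Skiv2l with 3xFLAG-Avi on both alleles, and Aven-/-. Titles of other libraries of clone 7E call it a Skiv2l conditional knockout, and the paper lists its Aven-/- conditional lines as Skiv2lfl/fl. Clone 7E thus differs from clone 5F by the loss of Aven, by the tag on SKIV2L, by the BirA-V6 allele at Rosa26 and by being another clone, and these cannot be told apart. Per library total without further scaling, Skiv2l was at 33.5, 36.1 and 31.2 CPM at day 0 and 13.8, 13.1 and 12.3 CPM at day 4 in 7E, against 147, 147 and 148 CPM at day 0 in 5F, so 7E started far below 5F. With size factors Skiv2l changed there by -1.32, and the clones differed by -1.31 ± 0.09 (7E minus 5F, edgeR interaction, adjusted p = 4.55e-10). In 7E 20.7% of 16333 tested genes were higher at day 4 and 19.4% lower. The response differed between the clones in 2052 of 17187 genes (11.9%). Of 2059 genes higher in 5F and tested in both clones, 1352 were also higher in 7E, 65.7% of the 5F list and 40.0% of the 7E list, and 53 were lower. Of 1895 genes lower in 5F, 1225 were also lower in 7E, 64.6% of the 5F list and 38.6% of the 7E list, and 38 were higher. The ERCC share of reads in 7E was 0.310% to 0.320% at day 0 and 0.640% to 0.659% at day 4, while in 5F it was 0.275% to 0.309% in all 6 libraries, so a comparison of the clones depends on the scaling. With spike-in scaling 244 of 16629 genes were higher in 7E (1.47%) and 15047 lower (90.5%), and the median difference between the clones over all tested genes was -1.03, against 0.00 with size factors. The paper added ERCC RNAs to the lysis buffer in a fixed amount per sample, so this scaling follows the RNA of a whole well. Fewer cells in the well and less RNA per cell cannot be told apart. Of the 1142 called differences that were positive with size factors, 923 were negative with spike-in scaling. Of the 2059 genes above, 172 were higher and 1598 lower in 7E with spike-in scaling.

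With size factors, 17 of 17 genes of the list of ATF4 and the stress response were higher in 7E, with a median of 1.45, and the response of 15 differed between the clones. With spike-in scaling the order turned. The median of the list was then 0.35 in 7E against 0.62 in 5F, 9 genes were higher and 6 lower in 7E, and the difference was called positive in 1 gene and negative in 7. Atf4 was at 1.35 in 7E with size factors (difference 0.53 ± 0.07, edgeR adjusted p = 4.62e-06), and its difference was -0.50 with spike-in scaling (adjusted p = 2.03e-06). Chac1 was at 2.82 (difference 1.07 ± 0.18, adjusted p = 1.96e-04, and 0.04 with spike-in scaling, adjusted p = 0.819). Atf3 and Ccn1 were at 2.61 and 2.26, with differences of 1.69 ± 0.14 and 1.50 ± 0.08, and these stayed positive with spike-in scaling, at 0.66 (adjusted p = 2.89e-04) and 0.47 (adjusted p = 5.93e-05).

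The response of 7E was below that of 5F for Nfkbid, Lefty1, Lefty2 and Nop56. With size factors Nfkbid was at 0.22 in 7E (difference -1.35 ± 0.11, edgeR adjusted p = 4.81e-09), Lefty1 at -0.09 (difference -0.65 ± 0.10), Lefty2 at -0.30 (difference -0.81 ± 0.10) and Nop56 at 0.30 (difference -0.35 ± 0.05). The differences with spike-in scaling were -2.37, -1.69, -1.85 and -1.38, beside a median of -1.03 over all tested genes. This shift could not turn a negative difference positive. For Txnip, Ifrd1, Hspa5 and Nodal the interaction did not pass the threshold with size factors, with differences of -0.03 ± 0.07, 0.13 ± 0.08, 0.05 ± 0.08 and 0.20 ± 0.07, while with spike-in scaling these were -1.06, -0.90, -0.98 and -0.83 and all passed. Mdk, which was at 0.01 ± 0.05 in 5F, differed by -0.47 ± 0.07 between the clones. Of 34 chromatin regulators, 19 rose and 1 fell in 5F, while in 7E 7 rose and 7 fell with size factors, with a median of -0.04, and 11 responses differed. With spike-in scaling all 34 were lower in 7E, as were 90.5% of all tested genes. Of 25 cholesterol genes 13 fell in 5F and 16 in 7E with size factors.

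**Figure D5:**
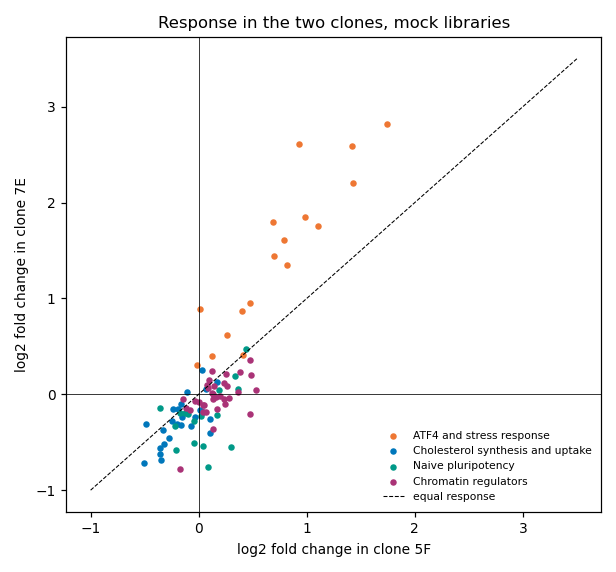
Log2 fold change at day 4 in clone 5F (horizontal) against clone 7E (vertical) for the tested members of 4 gene lists, scaled by size factors, one point per gene, with a dashed line of equal response. Genes of the ATF4 and stress list have medians of 0.69 in 5F and 1.45 in 7E and most lie above the dashed line, while with spike-in scaling, not drawn, the medians are 0.62 and 0.35.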

How the data were processed

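Mock libraries of clone 5F (3 at day 0 and 3 labelled day 4) were compared, with those of clone 7E beside them. The deposited counts are whole reads per gene, which the authors made from single-end reads of RiboZero-depleted RNA with STAR, counting reads with a unique position on mm10 over a Gencode annotation. The paper names ScriptSeq or TruSeq kits for its RNA-seq without saying which made these libraries. If the kit did not mark strand, overlapping and antisense genes share reads. Genes with near-identical copies are under-counted. The deposited binding values are a fraction per mRNA, the share that each of 3 proteins takes of its CRAC signal, which the authors pooled over libraries. Columns of sample values not mapped to a sample numbered 0.

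Counts were fitted with edgeR 4.0.16 (quasi-likelihood F test, R 4.3.3) on the 6 mock libraries of clone 5F without covariates, with median-ratio size factors from the 12 mock libraries of both clones. The SE is the fold change divided by the square root of F, and p-values were adjusted by Benjamini-Hochberg over all tested genes with a threshold of 0.05. The difference between clones is an interaction term. The fit was tested on simulated data. At 27401030 to 34114250 gene reads a library, precision was limited by the low genes. Same-numbered libraries of the days correlated by -0.07, -0.51 and -0.29 in their deviations, so the numbers were not taken to pair them. Alternatives were other scalings, filters and tools, a replicate block, and leaving out each library.

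The genes and lists were chosen with earlier results of these data known. Named were the Ski complex genes, the 12 largest rises and 12 largest falls with a mean of at least 10 CPM and groups apart, up to 4 called members of a list with a mean of at least 5 CPM and its leading members, and 10 genes the study names. Outside this rule, and after their values were seen, further list members were named: Asns, Atf3, Canx, Cbs, Cebpb, Cebpg, Cox5b, Ddit4, Dis3l, Dusp6, Eif4ebp1, Gata4, Herpud1, Hk2, Hsp90b1, Hyou1, Magoh, Mlxip, Mlxipl, Nupr1, Pdgfra, Ppp1r15a, Psat1, Psph, Pycr1, S100a10, Sesn2, Shmt1, Slc7a3, Smad3, Sox17, Sqle, Srebf2, Stc2, Tet2, Upf2, Upf3b, Vegfa, Xbp1 and Yars. Values of some genes are not reported here.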

Additional observations from a re-analysis of the deposited data

Results flagged for a closer look

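The response to 4OHT differed between clones 7E and 5F in 2052 of 17187 genes (edgeR interaction, adjusted p under 0.05), which is 11.9% of those tested. Of 230 genes described here, 91 passed this test, 56 with a response of 7E above that of 5F and 35 below. The values in parentheses are the log2 response of 7E minus that of 5F, with libraries scaled by size factors. The clones also differ in their spike-in share, and with spike-in scaling 46 of the 56 positive differences were negative, while none of the 35 negative ones turned positive.

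Among stress and amino acid genes, the difference was positive for Atf3 (1.69), Stc2 (1.11), Chac1 (1.07), Ddit4 (0.87), Trib3 (0.86), Nupr1 (0.82), Slc1a4 (0.81), Ddit3 (0.78), Cebpb (0.75), Mthfd2 (0.66), Pck2 (0.56), Atf4 (0.53), Slc7a1 (0.51), Psat1 (0.39), Slc7a5 (0.36), Eif4ebp1 (0.36), Slc3a2 (0.33), Cebpg (0.32), Aldh18a1 (0.29), Asns (0.28) and Sesn2 (0.27). It was negative for Cbs (-0.41).

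Among genes of the ER, sterols and energy supply, the difference was positive for Herpud1 (0.71), Hmox1 (0.26), Sqle (0.22), Canx (0.20) and Pdia6 (0.19). It was negative for Mlxip (-0.44), Tpi1 (-0.38), Slc16a3 (-0.35), Insig1 (-0.33), Pdk1 (-0.31), Ldha (-0.26) and Hmgcs1 (-0.21).

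Among signalling genes, the difference was positive for Ccn1 (1.50), Ccn2 (1.07), Axin2 (0.93), Cdkn1a (0.84), Amotl2 (0.78), Jun (0.72), Bmp4 (0.64), Mdm2 (0.58), Id1 (0.56) and Id2 (0.45). It was negative for Nfkbid (-1.35), Gbx2 (-0.83), Lefty2 (-0.81), Fgf4 (-0.66), Lefty1 (-0.65), Spred2 (-0.36) and Nfkb1 (-0.28).

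Among genes of the cytoskeleton, junctions and matrix, the difference was positive for S100a6 (1.79), Krt19 (1.22), S100a10 (0.77), Dsp (0.76), Ahnak (0.71), Cdh1 (0.33), Myh9 (0.33) and Actb (0.20). It was negative for Fn1 (-0.44).

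Among genes of cell identity, the difference was positive for Zscan4a (1.18), Peg10 (0.91), Nes (0.85), Sycp1 (0.57), Dab2 (0.53), Plagl1 (0.50) and Mael (0.36). It was negative for Tbx3 (-0.85), Neat1 (-0.51), Cubn (-0.39), Klf4 (-0.39), Klf2 (-0.31) and Nid1 (-0.27).

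Among genes of chromatin, the cell cycle and RNA processing or translation, it was negative for Kmt2c (-0.68), Tet2 (-0.60), Nop56 (-0.35), Kmt2a (-0.28), Dis3l (-0.27) and Ncl (-0.24).

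Among other genes described above, the difference was positive for Col7a1 (1.29), Rnf128 (1.23), Aars (0.27), Cars (0.23) and Yars (0.20). It was negative for Skiv2l (-1.31), mt-Nd6 (-0.73), BC005561 (-0.63), Kyat3 (-0.54), Mdk (-0.47), Rpl3 (-0.34) and Focad (-0.23).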

How the results depend on the processing

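With spike-in scaling the genes higher at day 4 numbered 1064 and those lower 2358, and the difference between clones was called in 14401 genes. The median of 10 of the 62 lists changed sign with it, from values of at most 0.04, and 40 of 294 named genes lost their call. DESeq2 called 1707 higher and 1579 lower, limma voom 2064 and 1866, and TMM scaling 2081 and 1940. With 1 library left out, 1530 to 2088 genes were higher and 1167 to 1883 lower, the lowest without day 0 replicate 3. Without 1 replicate number in both clones, the clones differed in 752 to 1445 genes, with 752 without replicate 1 and 1346 without replicate 3. Fewer libraries entered these fits. The libraries shared only a replicate number. With the replicate block 1660 genes were higher, 1303 lower and 1376 different between clones, and 24 named genes lost their call, Pou5f1 among them. The share of higher genes with the same sign under actinomycin D was 83.7% at 240 min, and that of lower genes 83.9% at 360 min, and the cause was not tested. No fold change of a called gene named in clone 5F changed direction in these alternatives. The differences between the clones did. With spike-in scaling 46 of the 56 positive differences named here turned negative, 37 of them past the threshold, and none of the 35 negative ones turned positive. This scaling moved all differences down by nearly the same amount (median -1.03), so the negative ones could not turn. The values of 7E minus 5F that turned were Axin2 (-0.10), Peg10 (-0.12), Ddit4 (-0.16), Trib3 (-0.17), Nes (-0.18), Cdkn1a (-0.19), Nupr1 (-0.20), Slc1a4 (-0.21), Amotl2 (-0.24), Ddit3 (-0.25), S100a10 (-0.26), Dsp (-0.27), Cebpb (-0.27), Jun (-0.31), Ahnak (-0.31), Herpud1 (-0.32), Mthfd2 (-0.37), Bmp4 (-0.38), Mdm2 (-0.46), Sycp1 (-0.46), Pck2 (-0.47), Id1 (-0.47), Atf4 (-0.50), Dab2 (-0.50), Slc7a1 (-0.53), Plagl1 (-0.53), Id2 (-0.57), Psat1 (-0.64), Mael (-0.67), Eif4ebp1 (-0.67), Slc7a5 (-0.67), Cdh1 (-0.70), Slc3a2 (-0.70), Myh9 (-0.70), Cebpg (-0.71), Aldh18a1 (-0.74), Asns (-0.75), Sesn2 (-0.75), Aars (-0.76), Hmox1 (-0.77), Cars (-0.80), Sqle (-0.81), Actb (-0.83), Yars (-0.83), Canx (-0.83) and Pdia6 (-0.84). None of the 91 differences changed sign with TMM scaling, DESeq2, the block or a replicate number left out, but 22 lost their call with the block and 15 to 39 without 1 replicate number. Among genes named above, the calls of Aars, Cars, Cox5b, Eif4ebp1, Exosc10, Focad, Hk2, Hmox1, Hsp90ab1, Iars, Id3, Klf4, Lamc1, Mars, Mdm2, Ncl, Pim3, Sox2, Srebf1, Stat3, Tcf7l1, Trp53, Xrn1 and Yars were lost with spike-in scaling, and those of Aars, Cbs, Cdkn1a, Cdx1, Cox5b, Dppa5a, Dusp6, Eif2ak2, Hk2, Hmox1, Hsp90ab1, Id3, Klf4, Lsm1, Lsm3, Lsm6, Magoh, Mars, Ncl, Otx2, Pdgfra, Pim3, Pou5f1, Srebf1, Tcf7l1, Tet2, Ttc37, Vdac1, Yars and mt-Nd6 when at least 1 library was left out. Depth limits genes with few reads, such as those of the two-cell-like state, and 1 clone with 3 technical replicates limits every p-value.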
